A study of Mus musculus with 6 samples.

Results

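The mitochondrial pyruvate dehydrogenase complex, the carrier that feeds it and the enzymes that switch it off and on were followed in brown adipose tissue (BAT) through 10 genes: the carrier subunits Mpc1 and Mpc2, the complex subunits Pdha1, Pdhb, Dlat and Pdhx, the kinases Pdk1, Pdk2 and Pdk4 and the phosphatase Pdp2. They were taken by gene symbol, and all 10 were found among the 23282 rows of the deposited counts. BAT came from 5-week-old male C57BL/6N mice, 3 wild-type and 3 Letmd1 KO. The KO mice carry a knockout-first Letmd1 allele derived from a single ES cell clone, in which a lacZ and neomycin resistance cassette disrupts the gene in an intron. It acts in every tissue of the animal. RNA of the whole tissue was read by QuantSeq from its 3′ end only, and counts of different genes therefore do not scale with transcript length. Values are given as CPM, counts relative to a common library size after TMM scaling, and ± is the SD over 3 mice.

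Pyruvate made by glycolysis enters mitochondria through a carrier built of MPC1 and MPC2. In the matrix, the pyruvate dehydrogenase complex turns it into acetyl-CoA for the citrate cycle and for fatty acid synthesis, in steps carried by E1 (PDHA1 and PDHB, with thiamine diphosphate), E2 (DLAT, with lipoate) and E3 (DLD), which is held in place by PDHX. Pyruvate dehydrogenase kinases phosphorylate E1 alpha and stop the reaction, and the phosphatases PDP1 and PDP2 remove that phosphate. Brown fat burns both fatty acids and glucose for heat, and the kinase isoforms differ in the signals they follow: Pdk4 is known to be induced by fasting and fatty acids, and Pdk1 by low oxygen.

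Letmd1 counts were 5658, 6490 and 5266 in wild-type BAT against 0, 0 and 1 in KO BAT, so every library matched its genotype label. The libraries held between 6669577 and 14574273 counts, and a gene without counts may have had up to 3, or 0.397 CPM in the smallest library (counting error only). Of 12995 genes tested, 22.3% were lower and 23.7% higher in Letmd1 KO BAT (adjusted p under 0.05), and with scaling by library size alone 1371 genes were lower and 5891 higher, because the TMM factors were between 0.852 and 0.887 in wild-type and between 1.13 and 1.17 in KO libraries. The median over all genes tested was a log2 fold change of 0.03 with TMM and 0.45 with library size alone. Each of the 8 adipocyte markers had counts in all mice but was lower in KO BAT. They are Ucp1, Cidea, Elovl3 and Cox8b, and the general adipocyte genes Adipoq, Fabp4, Plin1 and Cidec. Their summed level was 42160 to 48310 CPM in wild-type and 12400 to 16650 in KO mice. Most of it was Fabp4, at 27990 ± 2259 and 10450 ± 2065 CPM, whereas Ucp1 went from 6320 ± 518 to 381.5 ± 114 CPM. In whole tissue, fewer brown adipocytes and less of these RNAs per cell cannot be told apart. All 11 macrophage markers were higher, with sums of 182 to 257 CPM in wild-type BAT and 1726, 3597 and 1492 in KO mice 1 to 3, as were all 6 fibroblast markers and 4 of 5 Schwann cell markers. Of 7 endothelial markers, 4 were lower, and none of the 5 erythroid markers passed the test. Skeletal muscle markers were uneven, with sums of 11.8, 442 and 10.2 CPM in wild-type mice 1 to 3 and 465, 340 and 1331 in KO mice 1 to 3, and 2 of 14 tested were higher. The part of these markers in the results on the pyruvate dehydrogenase genes was not tested, except for muscle, which was entered as a covariate.

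Nearly all of the 10 genes were lower in Letmd1 KO BAT. Of 4 other tested genes of the complex, given below, 1 was lower, 1 higher and 2 not called (median log2 fold change 0.135). Of the 10 genes, 9 were lower and none was higher, against 22.3% and 23.7% of all genes tested. The exception was Pdk4, whose genotypes overlapped. For the same 9 genes all KO mice lay below all wild-type mice, as was the case for 27.2% of all genes, and for none did all KO mice lie above, as for 30.1%. The median log2 fold change of the 10 genes was -1.82 with TMM and -1.41 with library size alone. The summed level of the members fell from 8326 ± 378 to 2756 ± 368 CPM, which is 33.1% of wild-type. The 9 calls were kept in each of 15 alternative analyses.

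**Figure D1:**
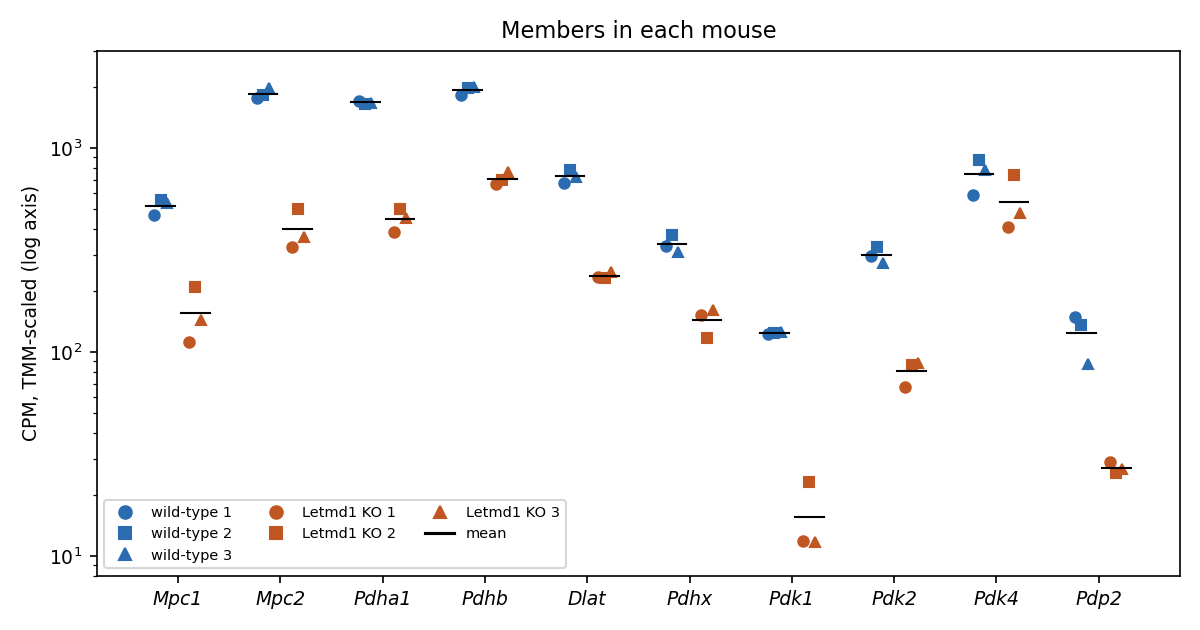
Level of each of the 10 genes in each mouse, as TMM-scaled CPM on a log axis. Blue symbols are wild-type mice, orange symbols are Letmd1 KO mice, the shape gives the replicate number and the line is the mean of 3 mice. The genotypes are separate for 9 genes and overlap for Pdk4, where KO mouse 2 (736.9 CPM) lies above wild-type mouse 1 (589 CPM).

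Both subunits of the pyruvate carrier fell. Mpc1, on chr17:8282904-8297661 (plus strand, GENCODE annotation of GRCm38), was at 468, 555 and 535 CPM in wild-type and 112, 208 and 144 in KO BAT. The lowest wild-type mouse was far above the highest KO mouse, and the log2 fold change was -1.75 (standard error 0.21, adjusted p = 1.55e-04, edgeR quasi-likelihood). Mpc2, on chr1:165460637-165481214, had 1760, 1828 and 1961 CPM in wild-type and 327, 504 and 368 in KO mice. It fell further, by 2.21 on the log2 scale (standard error 0.17, adjusted p = 1.96e-05), to 21.6% of wild-type. KO mouse 2 was the highest of its genotype for both. The log2 ratio of Mpc1 to Mpc2 counts within a mouse, which no scaling factor of a whole library can move, was between -1.91 and -1.72 in wild-type and between -1.54 and -1.28 in KO mice. These did not overlap, so Mpc2 counts were smaller relative to Mpc1 in every KO mouse than in any wild-type mouse. Quantile normalization, which shifts genes by their level, brought the log2 fold changes close together, at -1.50 for Mpc1 and -1.60 for Mpc2. The last 500 bases of Mpc1 lie over 4930506C21Rik, which is read from the other strand, and whether counting used strand was not given in the sources used here. That row held 3.31 to 5.97% as many counts as Mpc1 in wild-type and 3.13 to 6.22% in KO mice, and reads of the pair cannot be told apart. Both this neighbour and Map3k15, given with Pdha1, were looked up after the values were seen. Mpc1 also shares stretches with the pseudogene Mpc1-ps, identical over 256 bases, and Mpc2 with Gm31931 (91.4% over 221 bases), and because the counts include multiple alignments, reads from such copies are uncertain.

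The E1 subunits fell together but not by the same amount. Pdha1, the X-linked alpha subunit that carries the phosphorylation sites (chrX:160122209-160138413, minus strand), had 1698, 1652 and 1669 CPM in wild-type and 387, 504 and 453 in KO mice. Its wild-type mice lay within a few percent of each other and its log2 fold change was -1.90 (standard error 0.13, adjusted p = 1.22e-05). Pdhb, the beta subunit (chr14:8165996-8173025), went from 1814, 1967 and 1986 to 669, 698 and 759 CPM, which is -1.44 on the log2 scale (standard error 0.12, adjusted p = 2.58e-05). E1 holds both proteins in equal numbers, but the counts are of RNA 3′ ends and do not give protein amounts. The log2 ratio of Pdha1 to Pdhb moved from -0.20 ± 0.09 to -0.67 ± 0.17 with no overlap between genotypes. With quantile normalization and limma the difference of Pdhb shrank to -0.68 and that of Pdha1 to -1.27, and both stayed past the threshold. The 3′ end of Pdha1 overlaps that of Map3k15, which runs on the opposite strand. Map3k15 had between 38.5 and 42.7% as many counts as Pdha1 in wild-type mice and between 36.2 and 46.5% in KO mice, and its own log2 fold change was -1.88 (adjusted p = 4.51e-06). Without strand, reads of this pair cannot be told apart. Pdhb has a near copy in Gm6123 (97.5% over 158 bases).

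Dlat, the lipoate-bearing E2 core (chr9:50634633-50659780), was the tightest of the 10 genes in KO BAT. Its wild-type mice had 676, 784 and 725 CPM and its KO mice 234, 229.7 and 248. The KO mice were nearly equal at 237 ± 9.55 CPM, and the log2 fold change was -1.62 (standard error 0.11, adjusted p = 1.08e-05). Pdhx, which anchors E3 to the E2 core (chr2:103021075-103073513), had 333, 376 and 308 CPM in wild-type and 153, 117 and 160.4 in KO mice. With TMM it changed least among the 9 lower genes, by -1.24 (standard error 0.14, adjusted p = 1.36e-04). With quantile normalization Pdhb changed least, by -0.68, and Pdhx by -0.98. Within a mouse the log2 ratio of Pdhx to Dlat was -1.11 ± 0.11 in wild-type and -0.74 ± 0.20 in KO BAT, with no overlap. Dld, the E3 subunit that the complex shares with its sister complexes, is not one of the 10 genes. It went from 636.9 ± 24.5 to 243 ± 23.9 CPM (log2 fold change -1.39, adjusted p = 2.42e-05). The 5 core subunits Pdha1, Pdhb, Dlat, Pdhx and Dld took 0.459 ± 0.018% of all counts in wild-type and 0.206 ± 0.012% in KO libraries before any scaling. Pdha2, the testis form of E1 alpha, had no counts in any mouse.

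**Figure D2:**
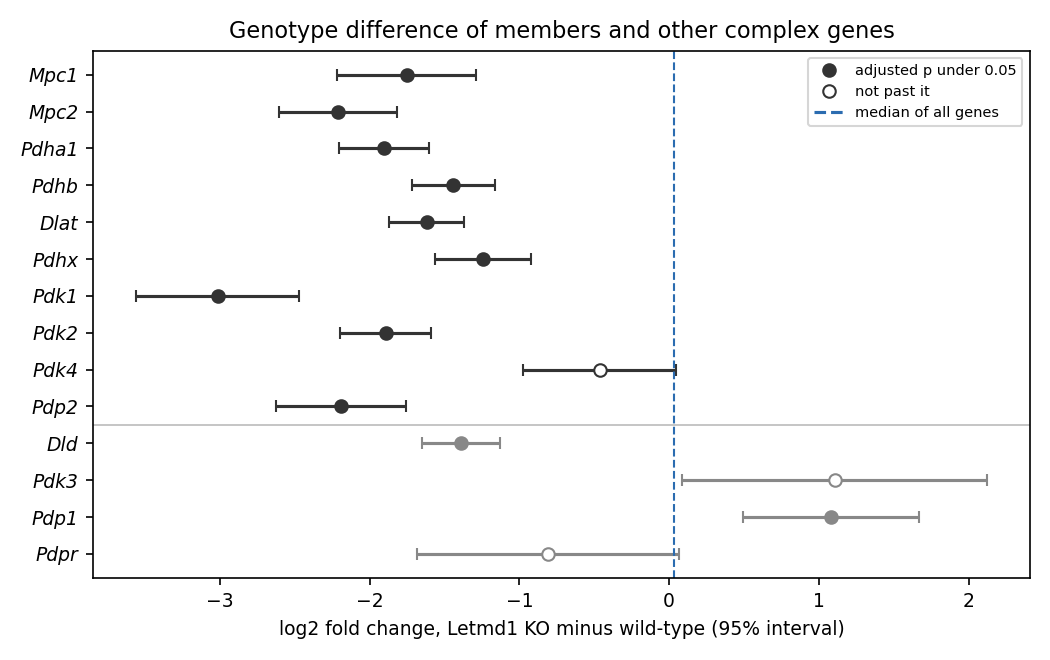
Log2 fold change of each gene, Letmd1 KO minus wild-type, with its 95% interval from edgeR. Filled points passed an adjusted p under 0.05, open points did not, black marks the 10 genes, grey the other genes of the complex below the line, and the dashed line is the median of all genes (0.03). Pdk1 lies furthest to the left at -3.01, and Pdk4 is the only one of the 10 whose interval reaches 0.

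The log2 fold changes of the 3 kinases ran from -3.01 to -0.46, a wider spread than that of the carrier or E1 subunits. Pdk1 (chr2:71873224-71903858, plus strand) was at 122, 124 and 125 CPM in wild-type and 11.8, 23.1 and 11.8 in KO BAT. Its wild-type values were almost the same, KO mouse 2 was above the other KO mice, and the log2 fold change (-3.01, standard error 0.24, adjusted p = 2.08e-05) was the most negative of the 10, with 71 of the 12995 genes below it. Pdk2 (chr11:95026258-95041354, minus strand) had 295, 328 and 274 CPM in wild-type and 67.5, 86.3 and 87.9 in KO mice, which is -1.89 on the log2 scale (standard error 0.13, adjusted p = 1.26e-05). The log2 ratio of Pdk2 to Pdha1, the subunit it phosphorylates, was -2.49 ± 0.14 in wild-type and -2.48 ± 0.10 in KO BAT, and the genotypes overlapped, whereas with quantile normalization the log2 fold changes were -1.66 for Pdk2 and -1.27 for Pdha1. Pdk4 (chr6:5483351-5496309, minus strand) had 589, 878 and 777 CPM in wild-type and 408, 736.9 and 481 in KO mice. Its genotypes overlapped, and the difference, -0.46 on the log2 scale (95% interval -0.98 to 0.05, adjusted p = 0.123), did not pass the threshold.

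Pdk4 was the only one of the 10 genes whose call changed under an alternative. KO mouse 2 had the highest summed macrophage, fibroblast and adipocyte markers of its genotype. Of the adipocyte markers it was the highest in Fabp4, Adipoq, Plin1, Cidec and Elovl3. It was the lowest in Ucp1 and Cidea and lay between the other KO mice in Cox8b. Without this mouse, the log2 fold change of Pdk4 was -0.75 and passed (adjusted p = 0.00837). With library size alone it was -0.05 and with quantile normalization -0.01. Wild-type mouse 2, the only one of its genotype with a muscle marker sum above 11.8 CPM, was also the highest in Pdk4. Without it and KO mouse 3, the mice with most muscle marker counts in their genotype, the log2 fold change was -0.27 (adjusted p = 0.507), and with the muscle markers as a covariate it was -0.58 (adjusted p = 0.211).

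Pdk4 took a larger share of the kinase counts in every KO mouse than in any wild-type mouse. It made up 58.5, 65.9 and 65.9% of all kinase counts (Pdk1 to Pdk4) in wild-type mice 1 to 3 and 83.0, 86.5 and 82.2% in the KO mice. Pdk1 went from 10.7 ± 1.40% to 2.38 ± 0.35% of kinase counts, and Pdk2 from 25.7 ± 3.20% to 12.96 ± 2.53%. None of these shares overlapped between the genotypes, and no scaling factor of a whole library can move them, but they were not tested, since the genes were chosen with results known. Quantile normalization does move genes unequally, and gave log2 fold changes of -3.04 for Pdk1, -1.66 for Pdk2 and -0.01 for Pdk4. The log2 ratio of Pdk4 to Pdha1 was between -1.53 and -0.91 in wild-type and between 0.08 and 0.55 in KO mice, so that the kinase had fewer counts than its substrate in each wild-type mouse and more in each KO mouse. The summed kinases stood at 54.8% of the wild-type mean and the summed core subunits at 33.6%. Pdk3, a kinase outside the 10 genes, had a low level, at 0.969, 2.01 and 3.91 CPM in wild-type and 4.28, 5.68 and 4.7 in KO mice (log2 fold change 1.10, adjusted p = 0.0726). Without wild-type mouse 3 it passed, with a log2 fold change of 1.69 (adjusted p = 0.011), as it did with library size alone (1.52).

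Pdp2 (chr8:104591451-104599026, plus strand), the phosphatase that insulin is known to act on, was at 148, 136 and 86.99 CPM in wild-type and 28.9, 25.6 and 26.7 in KO BAT. Wild-type mouse 3 was well below the other wild-type mice but still far above any KO mouse, and the log2 fold change was -2.19 (standard error 0.19, adjusted p = 3.05e-05). Pdp1, the calcium-stimulated phosphatase that is abundant in muscle and is not one of the 10 genes, went the other way from a low level. It had 8.61, 8.68 and 10.7 CPM in wild-type and 12.5, 20.6 and 25.5 in KO mice, with no overlap (log2 fold change 1.08, adjusted p = 0.00819). With the muscle markers as a covariate the log2 fold change was 0.97 (adjusted p = 0.13). Without the mice with most muscle marker counts it was 0.76 (adjusted p = 0.108), so the call was lost in both. The standard error was 0.261 in the main fit and 0.431 and 0.315 in these fits. Calls over all genes also fell in them, from 5979 to 3578 and 3889. Pdp1 took 5.50, 6.00 and 10.9% of phosphatase counts in wild-type and 30.2, 44.6 and 48.9% in KO mice. Pdpr, which restrains the phosphatase PDP1, was at 2.18 ± 0.42 and 1.24 ± 0.16 CPM (log2 fold change -0.81, adjusted p = 0.118). All KO mice were below all wild-type mice in Pdpr, and it passed with quantile normalization and limma (-1.43, adjusted p = 0.009). The balance of phosphatase to core counts overlapped between genotypes (log2 ratio -5.35 ± 0.38 and -5.26 ± 0.09), as did that of kinases to phosphatases (3.16 ± 0.46 and 3.75 ± 0.39).

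**Figure D3:**
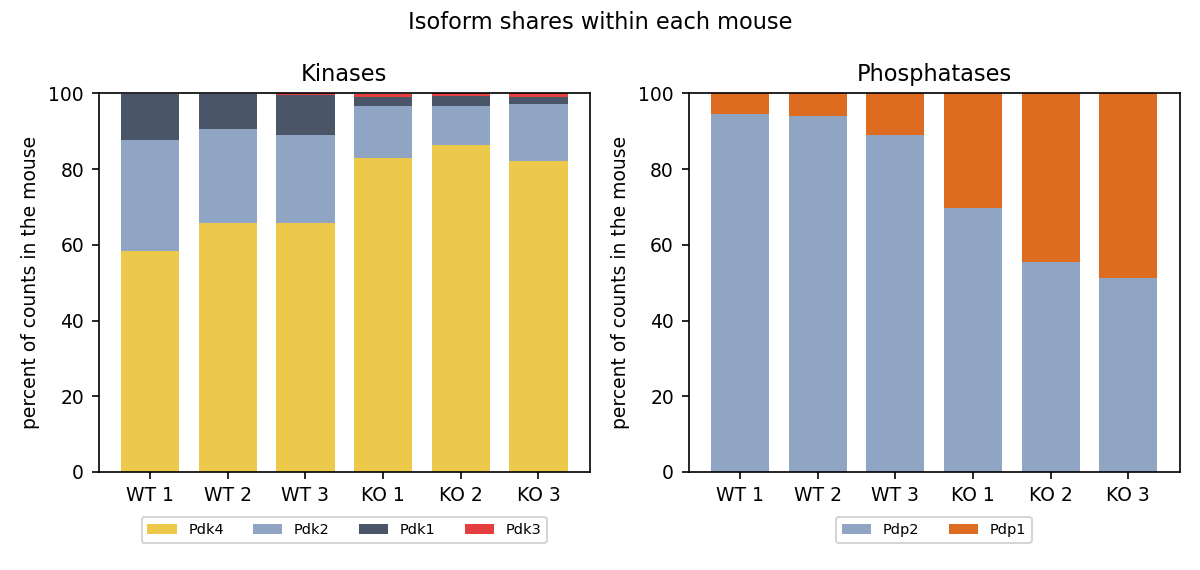
Share of each kinase gene in the counts of Pdk1 to Pdk4 (left) and of each phosphatase gene in the counts of Pdp1 and Pdp2 (right), in percent, for each wild-type (WT) and Letmd1 KO (KO) mouse. Pdk4 takes 58.5 to 65.9% of kinase counts in wild-type and 82.2 to 86.5% in KO mice, and Pdp1 takes 5.50 to 10.9% and 30.2 to 48.9% of phosphatase counts.

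The order of the genes by level also changed. In wild-type BAT it ran Pdhb, Mpc2, Pdha1, Pdk4, Dlat, Mpc1, Pdhx, Pdk2, Pdk1 and Pdp2, and the ranges of the 3 mice touched between Pdhb and Mpc2, Pdk4 and Dlat, Pdhx and Pdk2, and Pdk1 and Pdp2. In KO BAT it ran Pdhb, Pdk4, Pdha1, Mpc2, Dlat, Mpc1, Pdhx, Pdk2, Pdp2 and Pdk1. There the ranges touched along Pdhb, Pdk4, Pdha1 and Mpc2 and between Mpc1 and Pdhx. Pdk4 moved up past Pdha1 and Mpc2, and Pdk1 became the lowest of the 10.

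Promoters are shown for the 3 kinases, because they parted more than the carrier or E1 subunits did. Sequences are from RefSeq (GRCm38.p6), whose table held at least 1 promoter for each of the 10 genes. Each is the 250 bases before a start site of the gene, 5′ to 3′ on its own strand. Capitals mark the box CCAAT on either strand, so that its reverse complement is also in capitals, and the E-box, whose letters are CACGTG. Both words were looked for after the values were seen. Pdk1 lies at chr2:71872974-71873223, Pdk2 at chr11:95041372-95041621 and Pdk4 at chr6:5496279-5496528.
Pdk1: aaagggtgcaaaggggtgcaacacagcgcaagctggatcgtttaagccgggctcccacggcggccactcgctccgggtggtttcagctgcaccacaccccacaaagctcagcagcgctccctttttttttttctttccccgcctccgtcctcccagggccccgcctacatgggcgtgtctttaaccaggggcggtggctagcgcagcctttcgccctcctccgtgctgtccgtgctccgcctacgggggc
Pdk2: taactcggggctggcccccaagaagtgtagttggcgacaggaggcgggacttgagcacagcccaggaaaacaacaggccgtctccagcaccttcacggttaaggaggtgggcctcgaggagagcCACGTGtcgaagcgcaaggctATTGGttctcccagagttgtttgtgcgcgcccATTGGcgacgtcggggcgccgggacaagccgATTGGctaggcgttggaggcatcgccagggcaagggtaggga
Pdk4: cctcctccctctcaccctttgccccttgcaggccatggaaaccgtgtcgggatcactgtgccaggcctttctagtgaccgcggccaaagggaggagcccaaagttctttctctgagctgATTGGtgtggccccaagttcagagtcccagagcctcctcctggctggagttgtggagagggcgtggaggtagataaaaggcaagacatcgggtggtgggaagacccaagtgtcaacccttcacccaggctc
Pdk2 held the first box 105, 73 and 42 bases before its start and the E-box 126 bases before it. Pdk4 held the first box once, 131 bases before its start, and the Pdk1 window held neither. Over all 32851 windows of this length, 33.8% held the first box and 6.02% the E-box. The 10 genes had 13 windows, since Mpc1, Pdk1 and Pdk2 had a second one. The first box was in 6 of the 13 (1 each of Mpc1, Mpc2, Pdhb, Pdk2, Pdk4 and Pdp2), which include genes that fell and the one that did not pass, and the E-box was in 2 (Pdk2 and Pdp2). Longer words for known regulators were searched on both strands of the whole 300-base promoters: TNAAGGTCA for estrogen-related receptors (in 1.28% of all promoters), CCGGAAGTG for GABPA (2.03%), GCGCATGCG for NRF1 (1.75%), TGACGTCA for CREB (1.79%), TGATGCAAT for ATF4 (0.192%) and AAGATGGCG for YY1 (1.4%). No promoter of the 10 genes held these letters. Each word is rare in any promoter, so its absence from 13 of them does not tell whether its regulator acts on these genes.

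Genes that supply the lipoate cofactor of the complex were mostly lower too. Of 16 tested genes for making lipoate and the iron-sulfur clusters that its synthesis requires, 12 were lower and none higher. Their median log2 fold change was -0.85. Isca1, an iron-sulfur cluster assembly factor, changed most, from 209.7 ± 5.50 to 76.5 ± 4.86 CPM (log2 fold change -1.45, adjusted p = 1.10e-05). Fdxr, which passes electrons to ferredoxin, was at 17.7 ± 1.31 and 19.8 ± 3.75 CPM and did not pass (log2 fold change 0.17, adjusted p = 0.464), but was called higher with library size alone (0.59, adjusted p = 0.0221). Of 3 tested genes of thiamine supply, 1 was lower and 1 higher, too few to set against the 22.3% and 23.7% of all genes. Slc19a2, which takes thiamine into the cell, had 5.60, 8.47 and 8.20 CPM in wild-type and between 9.0 and 16.9 in KO mice (log2 fold change 0.89, adjusted p = 0.0269). Its call was lost with quantile normalization (0.57), with the muscle covariate (0.57), without the mice with most muscle marker counts (0.80), and without wild-type mouse 1 (0.72), KO mouse 2 (0.82) or KO mouse 3 (0.70).

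In the sister complexes for 2-oxoglutarate and branched-chain keto acids, 5 of 7 tested genes were lower and none higher. Among all genes tested, 22.3% were lower and 23.7% higher. The median of the list was -0.70, and -0.28 with library size alone. Dlst, the E2 core of the 2-oxoglutarate complex, fell as Dlat did, from 942 ± 31.7 to 302 ± 58.1 CPM (log2 fold change -1.64, adjusted p = 3.99e-05). Dbt, the E2 core of the branched-chain complex, had 223, 249 and 267 CPM in wild-type and 228, 213 and 259.6 in KO mice, and did not pass (log2 difference -0.08, 95% interval -0.34 to 0.19, adjusted p = 0.634), but was called higher with library size alone (0.35, adjusted p = 0.0386). Downstream in the TCA cycle, 15 of 16 genes were lower and none higher, against the same 22.3% and 23.7% of all genes, with a median of -1.09. Ogdh and Dlst, both lower, are counted in this list and in the sister complexes. Cs, the citrate synthase that takes up the acetyl-CoA, was at 1607 ± 75.6 and 1223 ± 213 CPM and missed the threshold (log2 fold change -0.39, adjusted p = 0.0563), although all KO mice were below all wild-type mice. It passed with DESeq2 (-0.41, adjusted p = 0.0175) and without KO mouse 3 (-0.53, adjusted p = 0.0143), but was on the other side of 0 with library size alone (0.03, adjusted p = 0.897) and was called higher with quantile normalization (0.43, adjusted p = 0.0421).

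Of 13 tested genes that make pyruvate or send it elsewhere, 8 were lower and 2 higher, with a median of -1.17. Among all genes tested, 22.3% were lower and 23.7% higher, so the count higher was below the background. The glycolytic kinase Pkm fell by 1.37 on the log2 scale (-0.74 with quantile normalization), and the lactate dehydrogenase subunits Ldha and Ldhb fell by 1.75 and 1.54 (adjusted p = 3.62e-05, 6.65e-05 and 9.12e-05). These 3 were picked after their values were seen. Ldhd, which oxidises D-lactate, changed most, by -2.24 (adjusted p = 2.21e-05). Gpt2, the mitochondrial alanine aminotransferase, rose from 7.56 ± 1.38 to 20.8 ± 7.92 CPM (log2 fold change 1.45, adjusted p = 0.0029). Me2, a mitochondrial malic enzyme, was at 3.12 ± 0.81 and 6.31 ± 0.85 CPM (1.02, adjusted p = 0.0182), a call lost with quantile normalization (0.54), with the muscle covariate (0.56), without the mice with most muscle marker counts (1.11), and without wild-type mouse 1 (0.87) or KO mouse 3 (0.89). Slc16a3, a lactate exporter, was at 0.747 ± 0.692 and 2.21 ± 0.53 CPM (1.57, adjusted p = 0.074), and passed with library size alone (1.98, adjusted p = 0.0264) and without wild-type mouse 2 (2.58, adjusted p = 0.023).

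**Figure D4:**
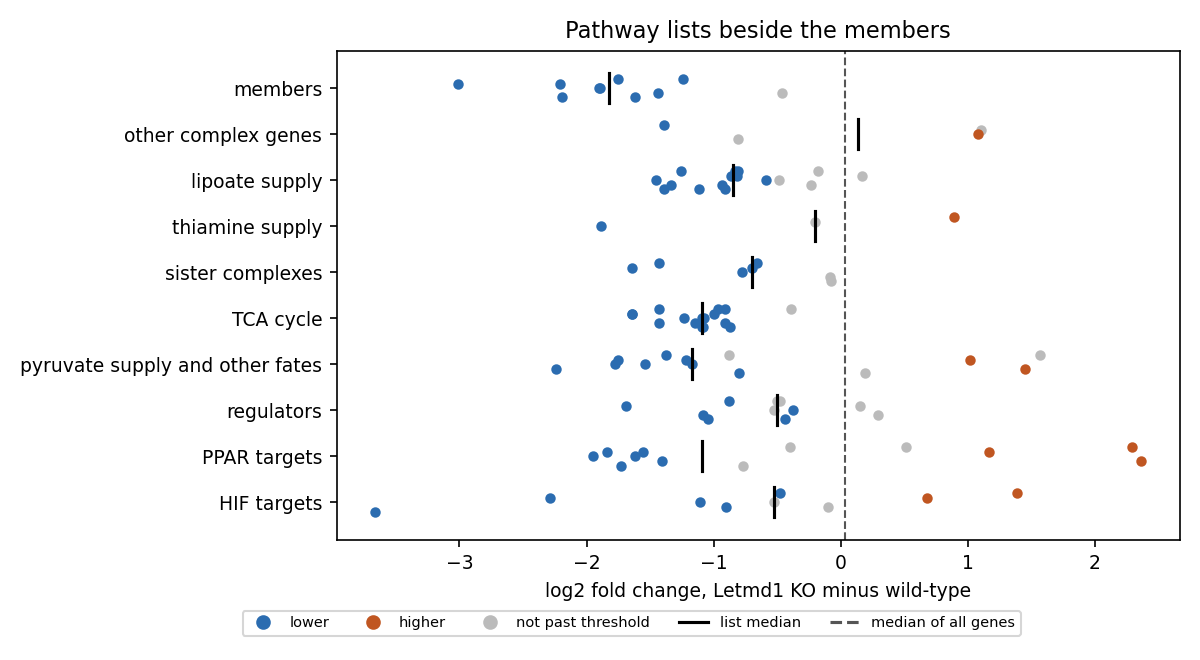
Log2 fold change, Letmd1 KO minus wild-type, of each tested gene in 10 lists. Blue points were lower, orange points higher and grey points not past the threshold, the black bar is the median of a list and the dashed line the median of all genes. The 10 members have the most negative median of the lists drawn (-1.82). The adipocyte markers, not drawn, had a median of -1.86. Orange points occur among other complex genes, thiamine supply, pyruvate supply, PPAR targets and HIF targets.

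Genes known to act on the kinases or to share their inducers came next. Of 11 regulators, 6 were lower and none higher (median -0.50, but -0.09 with library size alone and -0.24 with quantile normalization). Foxo1, a transcription factor known to induce Pdk4, had 549, 456 and 199 CPM in wild-type and 118, 118 and 137 in KO mice (log2 fold change -1.69, adjusted p = 0.0018), and wild-type mouse 3 was low in it as it was in Pdp2. Hif1a, known to induce Pdk1, was at 34.8 ± 6.10 and 42.8 ± 2.96 CPM and did not pass (log2 fold change 0.29, adjusted p = 0.144), but did with library size alone (0.71, adjusted p = 0.00384). Of 12 PPAR targets, 6 were lower and 3 higher, where 22.3% and 23.7% of all genes were, so the count higher was near the background. Ucp3, an uncoupling protein, fell by 1.95, while Acot2, a mitochondrial acyl-CoA thioesterase, rose from 275 ± 46.1 to 1418 ± 197 CPM (log2 fold change 2.37, adjusted p = 1.26e-05). Cpt1a, the liver form of the carnitine acyltransferase, rose by 2.29 and Angptl4, a secreted inhibitor of lipoprotein lipase, by 1.17. Of 9 tested HIF targets, 5 were lower and 2 higher, the latter again near the background. Egln3, an oxygen-sensing hydroxylase, had 15.9, 14.2 and 10.6 CPM in wild-type and 0.329, 2.64 and 0.587 in KO mice (log2 fold change -3.66, standard error 0.55, adjusted p = 6.36e-04), and its log2 fold change was -4.76 without KO mouse 2 and -4.37 with quantile normalization. Slc2a1, the glucose transporter GLUT1, rose from 7.58 ± 2.83 to 19.9 ± 4.64 CPM (1.39, adjusted p = 0.00366), a call lost with the muscle covariate (0.91, adjusted p = 0.0979). Ndrg1, a stress-responsive gene, rose by 0.68 (adjusted p = 0.0157), which was not past the threshold with the muscle covariate (0.42) or without KO mouse 1 (0.59).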

How the data were processed

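QuantSeq 3′ libraries were made from total BAT RNA of the 3 mice of each genotype. The authors aligned reads with Bowtie2, counted unique and multiple alignments with bedtools and deposited raw counts per gene, which are not normalized. The submitters' processing notes name mm10. The gene annotation and the use of strand in counting were not given in the sources used here. Samples were grouped by the genotype in their labels, which name no batch and do not state that each sample is a separate animal, so p-values measure only the spread between these samples, called mice here.

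Counts were tested in R 4.3.3 with edgeR 4.0.16 (TMM scaling, default filter with a minimum count of 10 and a total of 15, quasi-likelihood test) on 12995 of 23282 rows. A further 5588 rows had no counts. P-values were adjusted over all genes tested by Benjamini-Hochberg, with a threshold of 0.05. The steps were tested on simulated data, where far fewer genes were changed than were called here. There edgeR called 4 of 65 genes changed 1.5-fold, 32 of 65 changed 2-fold and 59 of 66 changed 4-fold. Of 12485 unchanged genes it called 13. A gene that did not pass may therefore still differ by a small amount. No library was a repeat of another of its genotype (chi-square of 11.5 to 34.0 per degree of freedom). Scaling was also by library size, RLE factors or quantiles (limma 3.58.1, log2 CPM with a prior count of 2; the study names quantile normalization with edgeR), and DESeq2 1.42.0, other filters, a threshold of 0.01, a replicate block, a muscle marker covariate and leaving out mice were tried. Gene positions came from GENCODE vM21 on GRCm38. Members and lists were chosen with earlier results of these data known. The genes named are all members and other complex genes, the genes with the most and least negative change of each list, and any gene called against the direction of its list, of which some are not reported here. Shares and ratios use counts within a mouse. Skeletal muscle markers entered as their mean log2 CPM.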

Additional observations from a re-analysis of the deposited data

How the results depend on the processing

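The 9 lower members kept direction and call in each of 15 alternatives. Over all genes, 5979 were called (2897 lower, 3082 higher). The total was 3578 with the muscle covariate (1760 lower, 1818 higher), 3889 without the mice with most muscle marker counts (1912 lower, 1977 higher) and 3939 at an adjusted p under 0.01 (1985 higher), where fewer samples, fewer residual degrees of freedom or the stricter threshold are part of the construction. With library size alone 1371 were lower and 5891 higher. Leaving out each mouse in turn gave 4842 to 5868 calls (2347 to 2869 lower, 2495 to 2999 higher) and 9 to 10 lower members, none higher. The samples with equal replicate numbers did not deviate together (correlations 0.069, -0.111 and -0.087), so the numbers are only names. With the replicate block 5599 genes were called, and 10 members, Pdk4 among them (-0.49, adjusted p = 0.0205). Pdpr passed with quantile normalization (-1.43). List medians with library size alone and with quantile normalization were -0.43 and -0.81 for lipoate supply, -0.28 and -0.58 for sister complexes, -0.67 and -0.59 for the TCA cycle, -0.75 and -0.74 for pyruvate supply, -0.68 and -0.70 for PPAR targets and -0.11 and -0.56 for HIF targets. Signs turned for Fdxr with the muscle covariate (-0.040), Dbt with library size alone (0.35) and quantile normalization (0.22), Cs likewise (0.026 and 0.43), and for the medians of other complex genes with quantile normalization (-0.16) and of thiamine supply with library size alone (0.21). The cause was not tested. Pdk3, Pdpr and Slc16a3 were near or below 5 CPM in each genotype, and whether depth limits their differences was not tested.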
